A study of Arabidopsis thaliana with 12 samples.

Results

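Transcript levels in leaf 13 of Arabidopsis thaliana rosettes were analysed for the genotype by wounding interaction, that is, the response to wounding in the mutant isi1-2 minus the response to wounding in the Col-0 wild type (WT). The interaction was taken over all 12 libraries of the study, and again over 11 libraries without replicate 1 of wounded WT. The 4 groups of 3 replicates were isi1-2 (SALK_014032, in the Col-0 background) with leaf 8 crushed by plastic forceps, isi1-2 left unwounded, WT with leaf 8 crushed, and WT left unwounded. Plants were 5 weeks old, leaf 13 was taken 1 h after the crushing of leaf 8, and each replicate pooled 2 plants, so a library carries no spread between single plants. The mutant was represented by 1 allele, and no complemented line was used here.

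Crushing 1 leaf of a rosette triggers electrical and calcium signals that travel through the veins to connected leaves, among them leaf 13. There jasmonate is made within minutes, binds the receptor COI1 and removes JAZ repressors from MYC transcription factors, which activate defence genes as well as the enzymes that break the hormone down. ISI1 (AT4G27750, IMPAIRED SUCROSE INDUCTION 1) encodes a conserved plant protein known from mutants with impaired expression of sugar-inducible genes. An interaction asks whether the response of a gene to the distant wound differs in size or direction between the genotypes, and it can come from the wounded leaves, from the unwounded leaves, or from both.

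The libraries held 23307790 to 30747778 counts over genes, and 18698 genes with enough counts were tested. ISI1 had 4, 1 and 1 counts in wounded isi1-2, 1 count in each unwounded isi1-2 library, 253, 337 and 315 counts in wounded WT, and 269, 254 and 270 counts in unwounded WT, so the mutant libraries stood far below the WT libraries in both treatments. Marker genes of mesophyll summed to 31900 to 36000 CPM (counts scaled to library size with TMM factors) in wounded isi1-2, 41000 to 43600 CPM in unwounded isi1-2, 32600 to 34400 CPM in wounded WT and 39300 to 42300 CPM in unwounded WT. Markers of flower and seed summed to at most 2.06 CPM and 1.39 CPM in any library. As whole leaves were used, a smaller number of cells of a type and less RNA per cell cannot be told apart.

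Replicate 1 of wounded WT stood apart from the other wounded WT libraries. The chi-square statistic of its counts per degree of freedom was 25.2 against replicate 2 and 15.9 against replicate 3, while the other replicate pairs of the study gave 4.42 to 11.6. Among the 3682 genes that were higher after wounding in both genotypes, replicate 1 had the lowest of the wounded WT values for 2254 genes, replicate 2 for 657 and replicate 3 for 771. Among the 3549 genes that were lower after wounding in both genotypes, replicate 1 had the highest wounded WT value for 2085 genes, replicate 2 for 585 and replicate 3 for 879. This library thus showed the weakest response of the wounded WT libraries for most wound-responsive genes, so the counts of interaction calls and the group medians below are given with and without it, and values of single genes name the fit they come from.

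Wounding changed many genes in both genotypes. In isi1-2, 4695 genes (25.1% of those tested) were called higher and 4813 (25.7%) lower after wounding. In WT, 4460 genes (23.9%) were called higher and 4304 (23%) lower, and without replicate 1 of wounded WT these counts were 4478 and 4333. Against this background the interaction was sparse: with all 12 libraries 6 genes (0.0321%) were called at an adjusted p under 0.05, of which 3 (0.016%) were more positive and 3 (0.016%) more negative in isi1-2. At an unadjusted p under 0.05, 934 genes (5%) were more positive and 1027 (5.49%) more negative, and the median interaction over all genes was -0.008 on the log2 scale. Without replicate 1 of wounded WT, 242 genes (1.29%) were called, 126 (0.674%) more positive and 116 (0.62%) more negative. At an unadjusted p under 0.05 the 11 libraries gave 1219 more positive genes (6.52%) and 1093 more negative ones (5.85%), with a median of 0.005. All 6 genes called with 12 libraries were also called with 11, and 241 of the 242 had the same sign in both fits.

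**Figure D1:**
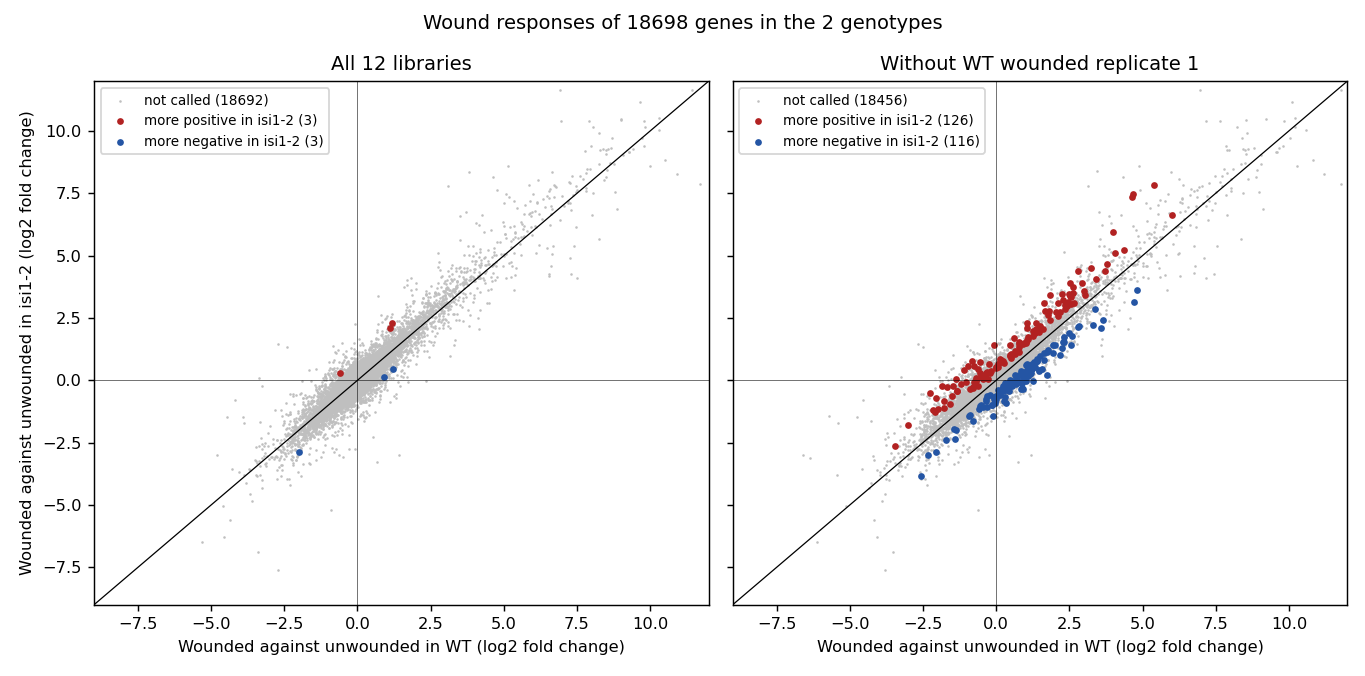
Log2 fold change of wounded against unwounded leaves in isi1-2 (vertical axis) and in WT (horizontal axis) for 18698 genes, with all 12 libraries (left) and without replicate 1 of wounded WT (right). Red and blue points are genes called for the interaction, 3 and 3 with 12 libraries and 126 and 116 with 11, and the line marks equal responses.

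The 242 genes mostly responded in the same direction in both genotypes but to a different extent. Of the 126 more positive genes, 75 changed in the same direction in both genotypes and by more in isi1-2, 17 in the same direction and by less, 11 in opposite directions, and 23 were called for wounding in 1 genotype. Of the 116 more negative genes, 48 changed in the same direction and by less in isi1-2, 18 in the same direction and by more, 11 in opposite directions, and 39 were called for wounding in 1 genotype. The absolute response was larger in isi1-2 for 131 of the 242 and smaller for 111. The median absolute interaction was 0.69 on the log2 scale, and 53 genes reached 2-fold. Between genotypes, 216 of the 242 were called in wounded leaves and 10 in unwounded leaves, with these counts sharing libraries with the interaction itself. For 206 of the 242, the omitted library lay outside the range of the other wounded WT libraries on the side of isi1-2, against 9326 of all 18698 genes. The 242 were chosen by the fit without that library, which favours genes whose other wounded WT libraries agree and differ from isi1-2. This count thus follows in part from the choice of genes.

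Whether isi1-2 responded more strongly as a whole depended on that library. With 12 libraries, the wound response was larger in isi1-2 for 60.4% of the 3682 genes that were higher in both genotypes and for 66.2% of the 3549 that were lower. With 11 libraries these shares were 54.8% and 54.3%. The median response of the genes that were higher was 0.75 in isi1-2 and 0.71 in WT with 12 libraries, and 0.75 in isi1-2 and 0.75 in WT with 11. The median response of the genes that were lower was -0.69 in isi1-2 and -0.60 in WT with 12 libraries, and -0.69 in isi1-2 and -0.65 in WT with 11.

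**Figure D2:**
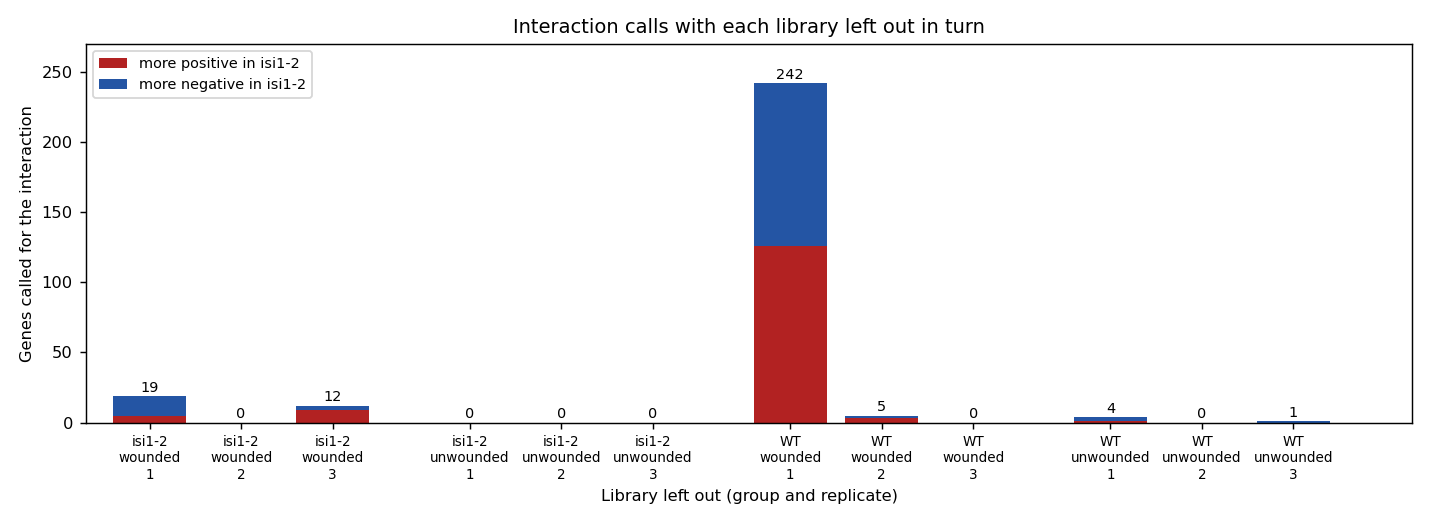
Number of genes called for the interaction (vertical axis) when each library, named on the horizontal axis, is left out of the 12, with genes more positive in isi1-2 in red and more negative in blue. Leaving out replicate 1 of wounded WT gives 242 calls, and leaving out any other library gives 0 to 19.

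The 3 genes called more positive with 12 libraries were EXPA10, UGT71B1 and AT2G31560. EXPA10 (AT1G26770, chr1:9259432-9261313, RefSeq TAIR10.1) encodes an alpha-expansin, a protein that loosens cell walls. It had 68.8, 89.5 and 85.5 CPM in wounded isi1-2, 15.7, 16.3 and 17.7 CPM in unwounded isi1-2, 37.1, 31.6 and 27.9 CPM in wounded WT, and 13.8, 15.7 and 12.9 CPM in unwounded WT. All wounded isi1-2 libraries were above all wounded WT libraries, and the unwounded isi1-2 libraries were above the unwounded WT libraries by a small margin. EXPA10 rose by 2.29 ± 0.12 in isi1-2 and by 1.19 ± 0.12 in WT (log2 fold change ± SE), an interaction of 1.11 ± 0.17 (adjusted p = 0.0379) with 12 libraries and 1.23 ± 0.15 (adjusted p = 0.000556) with 11.

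UGT71B1 (AT3G21750, chr3:7664345-7666305), a glycosyltransferase that conjugates sugars to small molecules, had the same pattern. Its level was 48.5, 66.7 and 55.6 CPM in wounded isi1-2, 12.3, 14.1 and 13.9 CPM in unwounded isi1-2, 34.6, 30.2 and 29.7 CPM in wounded WT, and 15.1, 14.2 and 14.1 CPM in unwounded WT. The wounded groups did not overlap, the unwounded groups did, and the interaction was 0.96 ± 0.15 (adjusted p = 0.0379) with 12 libraries and 1.04 ± 0.15 (adjusted p = 0.00138) with 11. AT2G31560 (chr2:13436485-13438011), annotated with a domain of unknown function, moved in opposite directions in the genotypes. It had 12.4, 12.9 and 13.1 CPM in wounded isi1-2, 10.6, 10.6 and 10.3 CPM in unwounded isi1-2, 7.7, 8.79 and 8.36 CPM in wounded WT, and 12.6, 12.6 and 12.6 CPM in unwounded WT. It rose by 0.29 ± 0.08 in isi1-2 (adjusted p = 0.00805) and fell by 0.60 ± 0.08 in WT (adjusted p = 1.92e-05), and the interaction was 0.89 ± 0.12 (adjusted p = 0.0212) with 12 libraries and 0.85 ± 0.12 (adjusted p = 0.00163) with 11. UGT71B1 overlaps AT3G21755 and AT2G31560 overlaps AT2G31570 on the other strand, and since the use of strand in counting is not given in the sources used here, their reads cannot be told apart from those of these neighbours.

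The 3 genes called more negative were APT2, PRR5 and FKF1. APT2 (AT1G80050, chr1:30111497-30114010) encodes an adenine phosphoribosyltransferase, an enzyme of purine and cytokinin salvage. It had 4.61, 3.81 and 4.12 CPM in wounded isi1-2, 28.8, 30.6 and 32.6 CPM in unwounded isi1-2, 7.25, 6.37 and 7.25 CPM in wounded WT, and 28, 27.3 and 28.7 CPM in unwounded WT. The wounded isi1-2 libraries were the lowest of all, so that APT2 fell by 2.88 ± 0.09 in isi1-2 and by 2.01 ± 0.09 in WT. The interaction of APT2 was -0.86 ± 0.13 (adjusted p = 0.0376) with 12 libraries and -0.82 ± 0.14 (adjusted p = 0.00559) with 11.

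PRR5 and FKF1 belong to the evening arm of the circadian clock. The clock of Arabidopsis is a loop of transcription factors in which CCA1 and LHY, made in the morning, repress evening genes through a promoter sequence called the evening element. PRR5 and TOC1 are pseudo-response regulators that repress the morning genes in turn. FKF1 is a blue light receptor that, with GI, removes CDF repressors and so permits flowering in long days. The promoters of FKF1, PRR5 and TOC1, the members of this arm called in either fit, are shown because each holds the evening element AAAATATCT. Each runs from 250 bases before to 20 bases after the annotated start, read on the strand of the gene from RefSeq TAIR10.1, with the element and its reverse complement in capitals. FKF1 lies at chr1:25508389-25508658 (plus strand), PRR5 at chr5:8358527-8358796 (minus strand) and TOC1 at chr5:24674713-24674982 (plus strand).
FKF1: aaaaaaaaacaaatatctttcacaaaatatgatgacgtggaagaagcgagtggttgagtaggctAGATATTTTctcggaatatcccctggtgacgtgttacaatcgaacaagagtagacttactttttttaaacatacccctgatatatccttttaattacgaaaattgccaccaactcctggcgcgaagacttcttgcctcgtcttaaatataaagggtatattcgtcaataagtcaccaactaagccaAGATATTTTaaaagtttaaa
PRR5: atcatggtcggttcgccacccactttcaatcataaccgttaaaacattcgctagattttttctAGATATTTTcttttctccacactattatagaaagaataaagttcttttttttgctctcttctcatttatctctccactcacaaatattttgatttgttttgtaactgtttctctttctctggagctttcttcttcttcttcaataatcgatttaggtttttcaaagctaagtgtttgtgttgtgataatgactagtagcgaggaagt
TOC1: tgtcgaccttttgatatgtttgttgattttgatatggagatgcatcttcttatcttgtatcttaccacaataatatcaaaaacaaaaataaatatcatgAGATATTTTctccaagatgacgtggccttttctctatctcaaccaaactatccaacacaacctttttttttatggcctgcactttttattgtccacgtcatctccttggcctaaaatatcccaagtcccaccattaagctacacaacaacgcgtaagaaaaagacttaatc
The element was found in either orientation in 5 of the 12 promoters of the evening group (41.7%), against 523 of the 18616 promoters of tested nuclear genes with a window of this length (2.81%). It stood in 7 of 116 promoters of the genes called more negative with 11 libraries (6.03%) and in 3 of 122 of those called more positive (2.46%). A related CCA1-binding site, AAAAATCT, stood in 2 of the 12 evening promoters (16.7%) and in 7.43% of all. These matches describe letters in a window and say nothing on binding.

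Evening clock genes were weighted to the negative side. Of 12 members tested, 9 were negative with either set of libraries, 5 were negative and 1 positive at an unadjusted p under 0.05 with 12 libraries, against 5.49% and 5% of all genes, and 6 and 1 with 11, against 5.85% and 6.52%. Calls numbered 2 with 12 libraries and 3 with 11, all negative, against 0.016% and 0.62% of all genes. The median of the group was -0.18 with 12 libraries and -0.25 with 11. PRR5 had 140, 115 and 109 CPM in wounded isi1-2, 106, 108 and 122 CPM in unwounded isi1-2, 162, 160 and 159 CPM in wounded WT, and 94.2, 80.4 and 80.3 CPM in unwounded WT. In isi1-2 the wounded and unwounded libraries overlapped, with a response of 0.12 ± 0.09 (adjusted p = 0.291), whereas in WT PRR5 rose by 0.91 ± 0.09 (adjusted p = 6.94e-07). The interaction of PRR5 was -0.80 ± 0.13 (adjusted p = 0.0453) with 12 libraries and -0.78 ± 0.14 (adjusted p = 0.00865) with 11.

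FKF1 differed between genotypes in the unwounded leaves. It had 96.4, 91.5 and 89.8 CPM in wounded isi1-2, 69.8, 65.8 and 68.1 CPM in unwounded isi1-2, 88.3, 88.4 and 97.4 CPM in wounded WT, and 46, 35.5 and 36.8 CPM in unwounded WT. Wounded leaves of the genotypes overlapped, with a genotype difference of 0.02 ± 0.08, while unwounded isi1-2 was above unwounded WT by 0.78 ± 0.08 (adjusted p = 0.000244). The interaction was -0.76 ± 0.12 (adjusted p = 0.0376) with 12 libraries and -0.78 ± 0.12 (adjusted p = 0.00211) with 11, and FKF1 overlaps AT1G68060 on the other strand. TOC1 had 132, 151 and 161 CPM in wounded isi1-2, 69.8, 62.9 and 73.7 CPM in unwounded isi1-2, 104, 159 and 153 CPM in wounded WT, and 54, 47 and 50 CPM in unwounded WT. Replicate 1 was the lowest of the wounded WT libraries, and the interaction of TOC1 was -0.36 ± 0.20 (adjusted p = 0.567) with it and -0.52 ± 0.11 (adjusted p = 0.0296) without it. GI gave -0.33 ± 0.09 (adjusted p = 0.161) and -0.35 ± 0.09 (adjusted p = 0.0783).

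**Figure D3:**
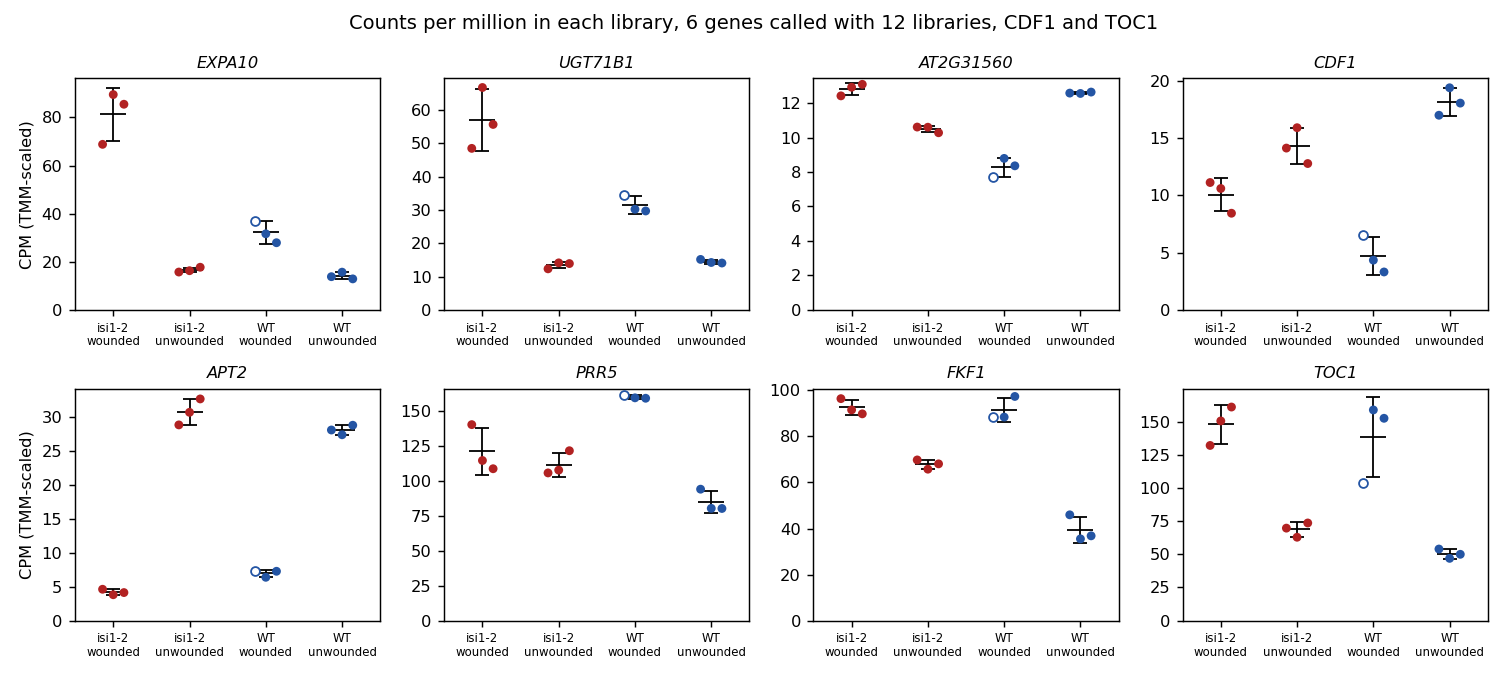
CPM (vertical axes, TMM-scaled) of the 6 genes called with 12 libraries and of CDF1 and TOC1 in the 4 groups, with points for libraries, replicate 1 of wounded WT as an open circle, and bars for mean ± SD (n = 3). EXPA10 and UGT71B1 stand apart in wounded isi1-2, whereas FKF1 stands apart in the unwounded leaves.

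The photoperiod and clock output group had positive medians, 0.36 with 12 libraries and 0.50 with 11, over 12 tested members. Of these, 7 were positive with 12 libraries and 8 with 11. At an unadjusted p under 0.05, 1 was positive and 2 negative with 12 libraries, against 5% and 5.49% of all genes. With 11 libraries 2 were positive and 2 negative at that level, against 6.52% and 5.85%. CDF1, a DOF repressor of the flowering gene CO and a substrate of FKF1, had 11.1, 10.6 and 8.45 CPM in wounded isi1-2, 14.1, 15.9 and 12.8 CPM in unwounded isi1-2, 6.53, 4.35 and 3.31 CPM in wounded WT, and 17, 19.4 and 18.1 CPM in unwounded WT. Wounded isi1-2 libraries were all above wounded WT libraries, and unwounded isi1-2 libraries were all below unwounded WT libraries. CDF1 fell by 0.51 ± 0.17 in isi1-2 and by 1.94 ± 0.18 in WT, and its interaction was 1.44 ± 0.25 (adjusted p = 0.0829) with 12 libraries and 1.74 ± 0.19 (adjusted p = 0.000177) with 11. CDF1 was the 1 call among the 12 with 11 libraries, where 0.674% of all genes were called more positive. GRP8 and GRP7, RNA-binding proteins under clock control, gave -0.35 ± 0.12 and -0.23 ± 0.10 with 12 libraries (adjusted p = 0.308 and 0.415), and CDF3 gave 0.12 ± 0.16 with 12 libraries and 0.32 ± 0.10 with 11 (adjusted p = 0.847 and 0.135). The 11 morning clock genes, with CCA1 and LHY among them, had no member under an unadjusted p of 0.05 in either fit, and their median was -0.06 with 12 libraries and 0.13 with 11.

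Most genes of the jasmonate pathway had positive interactions, few of them past the test. The 14 enzymes of jasmonate synthesis were all called higher after wounding in both genotypes. With 12 libraries their median response was 4.06 in isi1-2 and 3.92 in WT, and with 11 the WT median was 4.055. Their median interaction was 0.31 with 12 libraries and 0.14 with 11. Enzymes that break down or modify jasmonate had a median interaction of 0.72 with 12 libraries and 0.67 with 11, with 9 and 8 of 10 positive. Of these, IAR3, an amidohydrolase that cleaves jasmonoyl-isoleucine, had 952, 1026 and 936 CPM in wounded isi1-2, 9.46, 10.4 and 9.99 CPM in unwounded isi1-2, 608, 781 and 694 CPM in wounded WT, and 13.8, 9.85 and 10.8 CPM in unwounded WT. The wounded groups did not overlap and the unwounded groups did. Its interaction was 0.69 ± 0.16 (adjusted p = 0.128) with 12 libraries and 0.61 ± 0.14 (adjusted p = 0.039) with 11. IAR3 was the 1 call among the 10 with 11 libraries, where 0.674% of all genes were called more positive. DESeq2 with 12 libraries called IAR3 (adjusted p = 0.011), 1 of 150 genes it called. ST2A, which sulfates hydroxyjasmonate, had 26.7, 32.6 and 21.7 CPM in wounded isi1-2, 1.86, 1.06 and 1.69 CPM in unwounded isi1-2, 13.5, 7.63 and 6.26 CPM in wounded WT, and 0.773, 1.84 and 1.13 CPM in unwounded WT. Its wounded groups did not overlap, but the interaction did not pass the test (adjusted p = 0.477 with 12 libraries). JMT, which methylates jasmonate, gave 0.96 ± 0.46 with 12 libraries (adjusted p = 0.496).

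JAZ3 was the called member of the 13 JAZ repressors with 11 libraries, against 1.29% of all genes called. It had 294, 268 and 235 CPM in wounded isi1-2, 21.3, 24.7 and 20.1 CPM in unwounded isi1-2, 175, 199 and 179 CPM in wounded WT, and 24.3, 23.7 and 23.2 CPM in unwounded WT. Each wounded isi1-2 library was above each wounded WT library, with an interaction of 0.63 ± 0.12 (adjusted p = 0.0829) with 12 libraries and 0.60 ± 0.13 (adjusted p = 0.0243) with 11. JAZ10 gave 0.54 ± 0.29 (adjusted p = 0.543) and JAZ9 0.36 ± 0.22 (adjusted p = 0.602) with 12 libraries, and JAZ5 gave -0.55 ± 0.32 (adjusted p = 0.536) with 11. The median of the JAZ group was 0.14 with 12 libraries and 0.05 with 11. The 9 jasmonate transcription factor and receptor genes were less one-sided. Of these, 6 were positive with 12 libraries and 4 with 11, with medians of 0.10 and -0.01. NINJA, the adaptor that links JAZ proteins to the corepressor TOPLESS, was called with 11 libraries at 0.38 ± 0.09 (adjusted p = 0.042), against 0.35 ± 0.08 (adjusted p = 0.128) with 12. NINJA was the 1 call among the 9, where 0.674% of all genes were called more positive with 11 libraries. MYC3, an activator of jasmonate targets, gave 0.29 ± 0.09 (adjusted p = 0.253), and ORA47, an activator of jasmonate synthesis genes, gave -1.38 ± 0.52 (adjusted p = 0.371), both with 12 libraries. MYC4 gave 0.12 ± 0.23 with 12 libraries and 0.40 ± 0.16 with 11 (adjusted p = 0.909 and 0.279).

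Outputs of the pathway had larger medians in both fits than jasmonate synthesis, the JAZ repressors and the jasmonate transcription factor group. The 9 tested defence output genes had a median of 0.60 with 12 libraries and 0.85 with 11, with 8 of 9 positive and no call. Their median difference between genotypes with 12 libraries was 0.36 in wounded leaves and -0.04 in unwounded leaves. CLH1 (chlorophyllase) gave 0.47 ± 0.17 and the storage protein gene VSP1 gave 1.32 ± 0.63 with 12 libraries (adjusted p = 0.374 and 0.513). Between genotypes, VSP1 differed by 0.36 ± 0.29 in wounded leaves and by -0.96 ± 0.55 in unwounded leaves. It had 1.37, 1.64 and 2.02 CPM in unwounded isi1-2 and 5.5, 1.17 and 3.18 CPM in unwounded WT, with replicate 1 the highest. The chitinase gene CHIB had 0.249, 0.202 and 0.516 CPM in wounded isi1-2 and 0.263, 0.265 and 0.516 CPM in wounded WT, which overlapped (adjusted p of the interaction = 0.403). In unwounded leaves it had 0.111, 0.17 and 0.0411 CPM in isi1-2, at or near the floor of 3 counts, and 0.692, 0.602 and 0.209 CPM in WT. The 7 tested genes of terpene and leaf volatile synthesis had a median of 0.95 with 12 libraries and 0.76 with 11, again with no call. CHAT, which makes the leaf volatile hexenyl acetate, had 5.23, 4.09 and 2.74 CPM in wounded isi1-2 and 2.14, 2.26 and 1.95 CPM in wounded WT, which did not overlap, with an interaction of 1.25 ± 0.37 (adjusted p = 0.211). HPL1, a hydroperoxide lyase, gave 0.57 ± 0.21 and TPS10, a terpene synthase, 1.18 ± 0.62, whereas the terpene synthase TPS03 gave -0.69 ± 0.30 with 12 libraries (adjusted p = 0.357, 0.548 and 0.461). TPS03 averaged 712 CPM in wounded isi1-2 and 262 CPM in wounded WT, and 29.7 and 6.79 CPM in the unwounded groups. Its isi1-2 libraries were thus above the WT libraries in both treatments. At an unadjusted p under 0.05 with 12 libraries, the 2 groups held 4 positive members and 1 negative member, against 5% and 5.49% of all genes.

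Enzymes that make aromatic compounds from chorismate leaned to the positive side. All 10 tested genes of tryptophan synthesis had positive interactions in both fits, 5 of them at an unadjusted p under 0.05 with 12 libraries and 6 with 11, against 5% and 6.52% of all genes. The median was 0.29 with 12 libraries and 0.38 with 11. TSA1, the alpha chain of tryptophan synthase, had 155, 170 and 160 CPM in wounded isi1-2, 37.8, 38.6 and 37.2 CPM in unwounded isi1-2, 132, 116 and 99.7 CPM in wounded WT, and 39.1, 38.7 and 38.6 CPM in unwounded WT. Wounded isi1-2 was above wounded WT in each library, with an interaction of 0.52 ± 0.11 (adjusted p = 0.106) with 12 libraries and 0.63 ± 0.09 (adjusted p = 0.00163) with 11. TSA1 was the 1 call among the 10 with 11 libraries, where 0.674% of all genes were called more positive. PAT1, which acts at the step after anthranilate, gave 0.38 ± 0.09, ASB1, a subunit of anthranilate synthase, 0.40 ± 0.10, and TSB2, a beta chain of tryptophan synthase, 0.50 ± 0.15 with 12 libraries (adjusted p = 0.146, 0.161 and 0.23). With 12 libraries DESeq2 called 2 members, TSA1 and PAT1 (adjusted p = 0.0166 and 0.0421), and limma voom called 1. Over all genes these alternatives called 150 and 91. In ASB1, 13.5% of the exonic sequence searched lies in an exact copy of at least 100 bases elsewhere in the genome, so its reads may be shared.

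In the phenylpropanoid and lignin pathway, 10 of 16 genes were positive at an unadjusted p under 0.05 with 12 libraries and 9 with 11, against 5% and 6.52% of all genes, and none was negative at that level. The median was 0.27 with 12 libraries and 0.28 with 11, and the median response to wounding was 0.15 in isi1-2 and -0.19 in WT. C4H, the second enzyme of the pathway, had 140, 167 and 149 CPM in wounded isi1-2, 77.2, 78 and 72.7 CPM in unwounded isi1-2, 103, 121 and 104 CPM in wounded WT, and 82.4, 80.2 and 81.5 CPM in unwounded WT. It was higher in each wounded isi1-2 library than in any wounded WT library and lower in each unwounded isi1-2 library than in any unwounded WT library. The interaction of C4H was 0.57 ± 0.10 (adjusted p = 0.0814) with 12 libraries and 0.54 ± 0.10 (adjusted p = 0.0124) with 11. 4CL2, which activates coumarate, had 12.1, 13.8 and 12.2 CPM in wounded isi1-2, 4.67, 5.08 and 4.48 CPM in unwounded isi1-2, 8.9, 8.79 and 6.85 CPM in wounded WT, and 6.15, 4.66 and 6.19 CPM in unwounded WT. The wounded groups did not overlap, and the interaction was 0.88 ± 0.19 (adjusted p = 0.1) with 12 libraries and 0.95 ± 0.19 (adjusted p = 0.0178) with 11. C4H and 4CL2 were the 2 calls among the 16 with 11 libraries, where 0.674% of all genes were called more positive. PAL1, the entry enzyme, had 247, 253 and 195 CPM in wounded isi1-2, 71.3, 74.7 and 70.7 CPM in unwounded isi1-2, 148, 162 and 124 CPM in wounded WT, and 74, 66.3 and 81 CPM in unwounded WT. Its interaction was 0.71 ± 0.16 (adjusted p = 0.128) with 12 libraries and 0.73 ± 0.17 (adjusted p = 0.0741) with 11. With 12 libraries DESeq2 called 4 members of the pathway, PAL1 among them (adjusted p = 0.00719), and limma voom called 2. Over all genes these alternatives called 150 and 91. CCR1, an enzyme of the lignin branch, gave 0.27 ± 0.12 (adjusted p = 0.452) and 0.39 ± 0.10 (adjusted p = 0.0717).

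**Figure D4:**
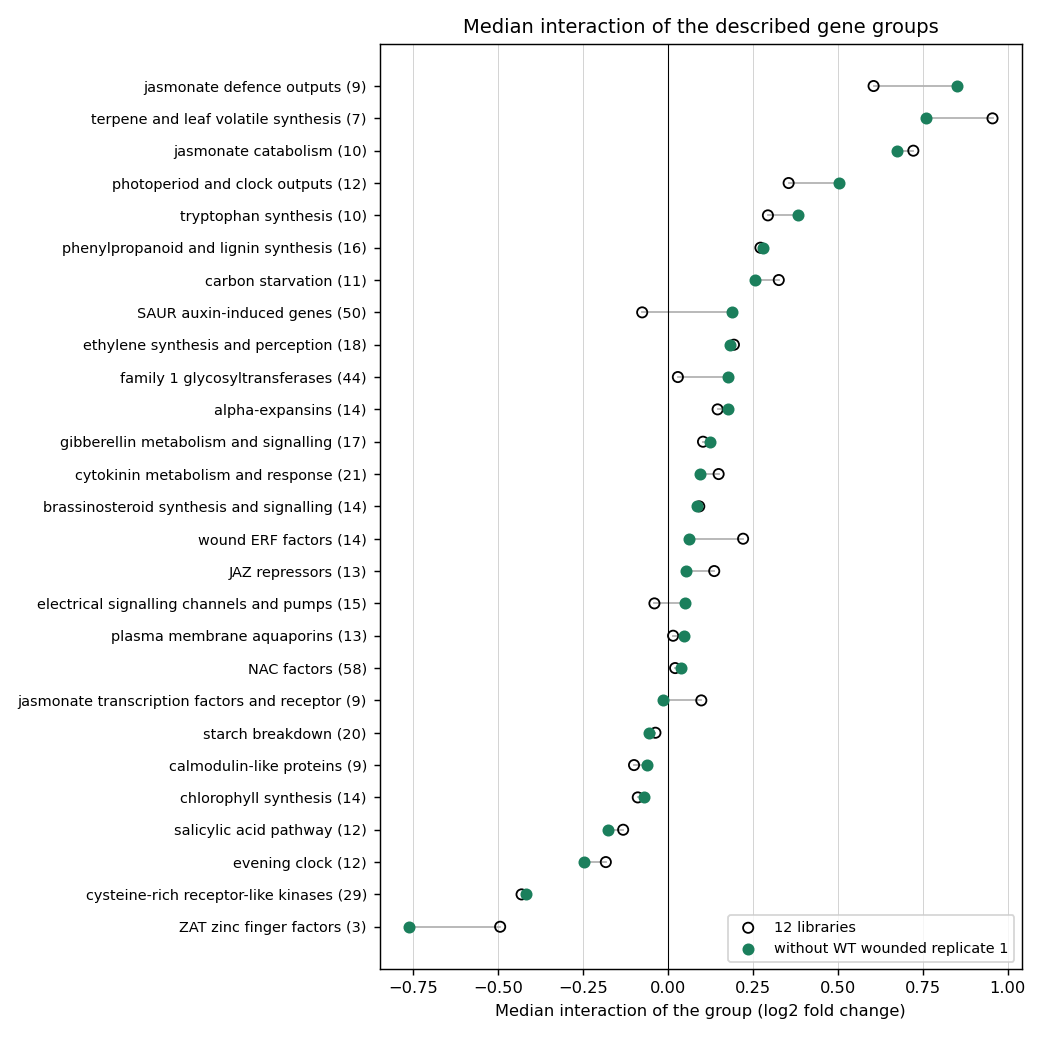
Median interaction (horizontal axis, log2 fold change) of 27 gene groups, with the number of tested members in brackets, for 12 libraries (open circles) and without replicate 1 of wounded WT (filled circles). Cysteine-rich receptor-like kinases lie at -0.43 and -0.42, tryptophan synthesis at 0.29 and 0.38, and the SAUR genes are on different sides of 0.

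Cysteine-rich receptor-like kinases (CRKs) leaned to the negative side. CRKs are membrane receptors with extracellular cysteine motifs that act in responses to pathogens and reactive oxygen, and this group was added after the interaction values had been seen. Of 29 tested CRK genes, 24 were negative with 12 libraries and 23 with 11, and the medians were -0.43 and -0.42. At an unadjusted p under 0.05, 8 were negative with 12 libraries and 13 with 11, against 5.49% and 5.85% of all genes, and none was positive in either fit. By edgeR's quasi-likelihood test, calls numbered 0 with 12 libraries and 6 with 11, all negative, against 0.62% of all genes with 11. With 12 libraries DESeq2 called 3 and limma voom with sample weights called 3, all negative, among 150 and 91 genes called over all. These alternatives also called members of other groups. Many CRK genes stand in a tandem row on chromosome 4 and are related in sequence. Of the 4 named CRK genes, none had an exact copy of 100 bases or more elsewhere.

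CRK41 (AT4G00970) had 16.1, 14.5 and 14.2 CPM in wounded isi1-2, 15, 14.4 and 16.6 CPM in unwounded isi1-2, 12.4, 29.2 and 27 CPM in wounded WT, and 11, 10.3 and 13.6 CPM in unwounded WT. Replicates 2 and 3 of wounded WT were above all other libraries, while replicate 1 of wounded WT lay with the unwounded WT libraries. Accordingly the interaction was -1.02 ± 0.38 (adjusted p = 0.389) with replicate 1 and -1.31 ± 0.15 (adjusted p = 0.000208) without it. CRK10 (AT4G23180) had 68.9, 50.7 and 57.9 CPM in wounded isi1-2, 108, 103 and 109 CPM in unwounded isi1-2, 72.8, 99.5 and 102 CPM in wounded WT, and 86.4, 74.6 and 87.9 CPM in unwounded WT. It fell by 0.85 ± 0.13 in isi1-2 (adjusted p = 0.000178) and gave 0.14 ± 0.13 in WT (adjusted p = 0.402), and the interaction was -0.99 ± 0.19 (adjusted p = 0.092) with 12 libraries and -1.12 ± 0.13 (adjusted p = 0.000663) with 11. CRK17 (AT4G23250) had 14.3, 13 and 12.3 CPM in wounded isi1-2, 39.6, 41.3 and 44 CPM in unwounded isi1-2, 18.2, 21.9 and 23.5 CPM in wounded WT, and 42.9, 34.6 and 38.7 CPM in unwounded WT. Wounded isi1-2 was below wounded WT in each library, with an interaction of -0.79 ± 0.14 (adjusted p = 0.0814) with 12 libraries and -0.87 ± 0.13 (adjusted p = 0.00146) with 11. CRK19 gave -0.43 ± 0.09 (adjusted p = 0.1) and -0.41 ± 0.10 (adjusted p = 0.0446). CRK10 overlaps AT4G23190, which is CRK11, on the other strand, and CRK19 overlaps AT4G23271.

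The promoters of CRK41 and CRK10 are shown because WRKY transcription factors of the defence response bind the W-box, whose core is TTGAC. The core is in capitals in either orientation, at chr4:418077-418346 (plus strand) for CRK41 and at chr4:12137745-12138014 (plus strand) for CRK10, in windows of the same build and length as above.
CRK41: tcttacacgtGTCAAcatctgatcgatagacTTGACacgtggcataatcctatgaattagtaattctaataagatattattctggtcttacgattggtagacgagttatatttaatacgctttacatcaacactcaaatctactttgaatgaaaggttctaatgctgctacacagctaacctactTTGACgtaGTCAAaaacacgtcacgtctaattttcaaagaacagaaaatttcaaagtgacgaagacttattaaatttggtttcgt
CRK10: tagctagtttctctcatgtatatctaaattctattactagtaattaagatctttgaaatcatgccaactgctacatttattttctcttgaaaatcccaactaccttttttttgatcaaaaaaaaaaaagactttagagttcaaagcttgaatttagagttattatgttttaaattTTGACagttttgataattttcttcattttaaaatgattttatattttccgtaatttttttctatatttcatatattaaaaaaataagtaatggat
The core stood in 19 of 29 CRK promoters (65.5%), in 66 of 116 promoters of genes called more negative with 11 libraries (56.9%), in 57 of 122 of those called more positive (46.7%) and in 46.9% of all. The G-box CACGTG, a sequence bound by MYC factors among others, stood in 1 of the 116 promoters of more negative genes (0.862%) and in 15 of the 122 of more positive genes (12.3%), against 8.15% of all.

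Kinases as a whole, the CRKs included, were more frequent among the negative calls than among the positive ones. Among the 116 genes called more negative with 11 libraries, 24 (20.7%) had a product name with the word kinase, against 2 of the 126 more positive ones (1.59%) and 5.63% of the genes tested, a word chosen after the calls had been seen. The 24 contain the 6 called CRKs and so are not separate from them. They also include the immune co-receptor SOBIR1 at -0.71 and BIR1, a negative regulator of immunity, at -0.60, as well as NADK1 and RACK1C_AT, which are no protein kinases. AT1G33770, annotated as a protein kinase, gave -1.03 ± 0.31 (adjusted p = 0.237) with 12 libraries and -1.24 ± 0.24 (adjusted p = 0.013) with 11. The salicylic acid pathway is a defence pathway that often opposes jasmonate. Of its 12 tested genes, 11 were negative in both fits, with medians of -0.13 and -0.18. At an unadjusted p under 0.05, 1 member was negative in each fit (8.33%), near the 5.49% and 5.85% of all genes. That member, EDS1, a lipase-like protein of immune receptor signalling, had 44.5, 39.6 and 38.4 CPM in wounded isi1-2, 42, 36.5 and 40.2 CPM in unwounded isi1-2, 36.2, 57.9 and 54 CPM in wounded WT, and 35.8, 30.9 and 35.6 CPM in unwounded WT. Replicate 1 of wounded WT again lay apart from replicates 2 and 3, below the wounded isi1-2 libraries. The interaction of EDS1 was -0.49 ± 0.20 (adjusted p = 0.439) with it and -0.66 ± 0.12 (adjusted p = 0.00646) without it. EDS1 was the 1 call of the group with 11 libraries, where 0.62% of all genes were called more negative. PR2, a glucanase induced by salicylic acid, was the positive member at 0.71 ± 0.37 (adjusted p = 0.538). PBS3, an enzyme of salicylic acid synthesis, gave -0.41 ± 0.28 (adjusted p = 0.648) with 12 libraries, and DMR6 and SARD1, a salicylic acid hydroxylase and a transcriptional activator, gave -0.43 ± 0.23 and -0.36 ± 0.22 with 11 (adjusted p = 0.512 and 0.548).

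**Figure D5:**
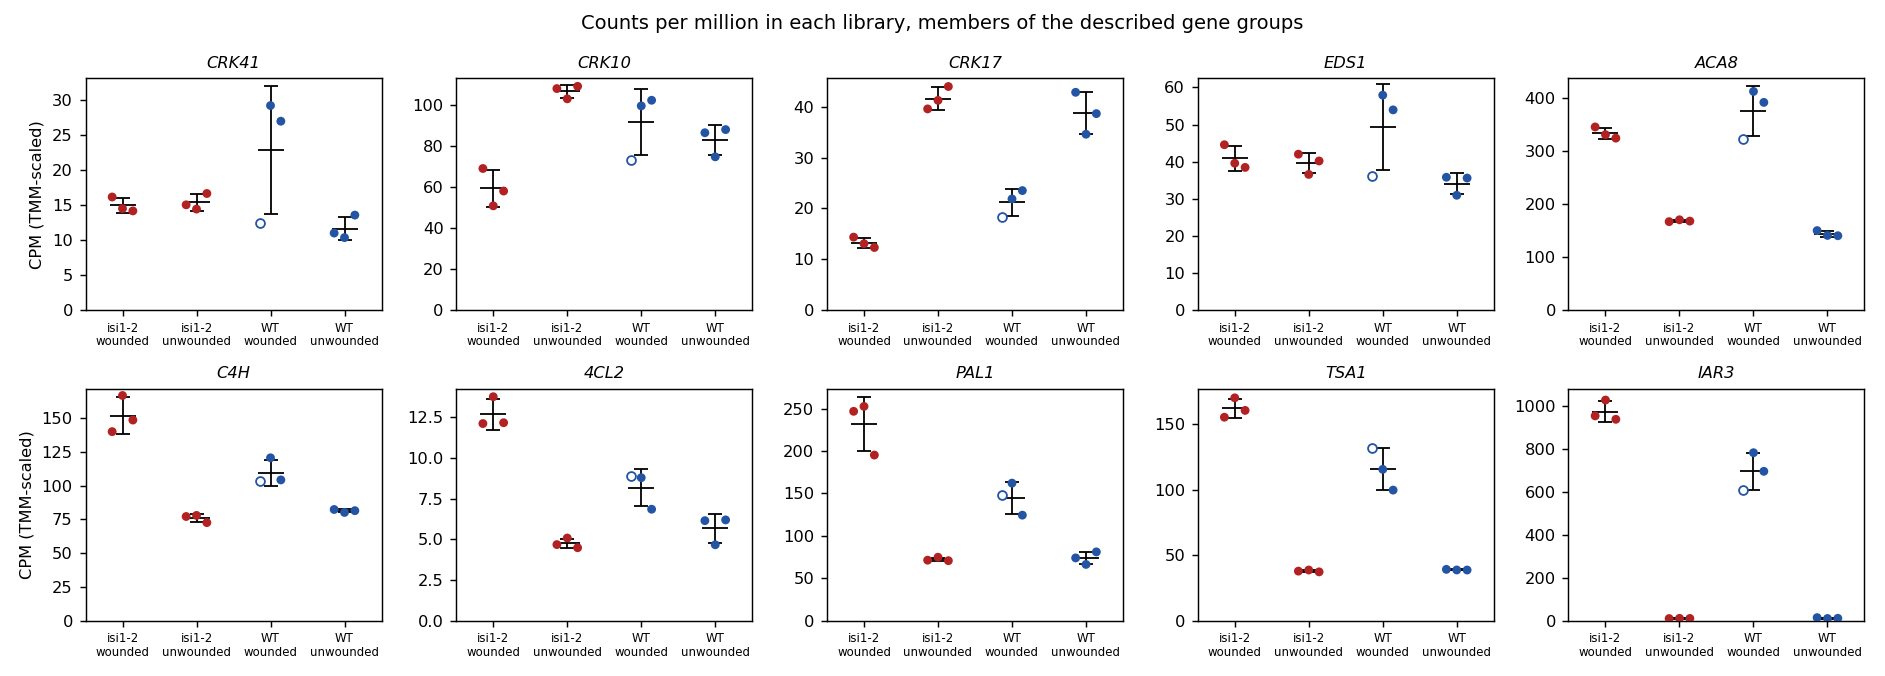
CPM (vertical axes, TMM-scaled) of 10 members of the described groups in the 4 groups of libraries, with points for libraries, replicate 1 of wounded WT as an open circle, and bars for mean ± SD (n = 3). For CRK41 and EDS1 the open circle lies below replicates 2 and 3 of wounded WT, and for C4H, 4CL2, PAL1, TSA1 and IAR3 the wounded isi1-2 libraries lie above all wounded WT libraries.

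The list of 15 tested channels and pumps of electrical signalling held 1 gene called with 11 libraries, against 1.29% of all genes. With 12 libraries edgeR called none, and limma voom called 1, among 91 genes it called over all. At an unadjusted p under 0.05 with 12 libraries 1 member was negative, where 5.49% of all genes were. Calcium genes outside this list were also called with 11 libraries, in both directions. The calcium pump ACA1 gave -0.96 and the calcium-dependent kinase CPK28 -1.08. The calcium-binding genes AT2G41410 and AT1G12080 gave 0.96 and 1.52, and all were named after their values had been seen. Calcium and calmodulin product names made up 2 of the more positive calls (1.59%) and 3 of the more negative ones (2.59%), against 1.05% of the genes tested. ACA8, a calcium pump of the plasma membrane, had 345, 331 and 324 CPM in wounded isi1-2, 167, 170 and 168 CPM in unwounded isi1-2, 322, 412 and 392 CPM in wounded WT, and 150, 141 and 140 CPM in unwounded WT. It rose by 0.99 ± 0.08 in isi1-2 and by 1.39 ± 0.08 in WT, and the interaction was -0.40 ± 0.11 (adjusted p = 0.173) with 12 libraries and -0.49 ± 0.08 (adjusted p = 0.00517) with 11. The glutamate receptor-like channel GLR3.3, which carries the wound signal between leaves, gave 0.10 ± 0.17 and 0.29 ± 0.11 (adjusted p = 0.898 and 0.248). The proton pump AHA1 gave 0.15 ± 0.08 and the mechanosensitive channel MSL10 gave -0.33 ± 0.16 with 12 libraries (adjusted p = 0.515 and 0.492). Of 9 calmodulin-like genes, 4 were negative and 1 positive at an unadjusted p under 0.05 with 11 libraries, where 5.85% and 6.52% of all genes were, and 2 and 1 with 12. TCH3, a touch-induced calcium sensor, had 160, 201 and 159 CPM in wounded isi1-2 and 93.3, 264 and 224 CPM in wounded WT, with an interaction of -0.82 ± 0.51 (adjusted p = 0.626) and -1.14 ± 0.27 (adjusted p = 0.108). The calcium sensors CAM9, CML23 and CML30 gave -0.46 ± 0.20, -1.08 ± 0.42 and 0.42 ± 0.16 with 12 libraries (adjusted p = 0.453, 0.374 and 0.371). The 3 tested ZAT zinc finger factors, which respond rapidly to stress, gave 1.22 ± 0.50 for ZAT6, -1.29 ± 0.66 for ZAT12 and -0.49 ± 0.69 for ZAT10 (adjusted p = 0.403, 0.567 and 0.864). ZAT12 had 5, 4 and 3 counts in unwounded isi1-2 and 1, 1 and 1 in unwounded WT, at or near the floor of 3 counts. Its wounded isi1-2 libraries, with a mean of 6.42 CPM, were above those of wounded WT, with 4.56 CPM.

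Cell wall genes changed in both directions. With 11 libraries, 1 of the 14 tested alpha-expansins was called more positive, which was EXPA10, and 2 were called more negative. Of all genes, 0.674% and 0.62% were called in these directions. With 12 libraries DESeq2 called 3 of the 14 and limma voom 1, among 150 and 91 genes called over all. EXPA11 had 7.31, 5.83 and 6.98 CPM in wounded isi1-2, 54.7, 47.8 and 60.7 CPM in unwounded isi1-2, 9.69, 7.76 and 8.58 CPM in wounded WT, and 44, 38.4 and 39.5 CPM in unwounded WT. It was lower in wounded isi1-2 and higher in unwounded isi1-2 than in any WT library of the same treatment, with an interaction of -0.79 ± 0.16 (adjusted p = 0.0829) with 12 libraries and -0.69 ± 0.16 (adjusted p = 0.0321) with 11. EXPA5 gave -0.40 ± 0.13 (adjusted p = 0.277) and -0.50 ± 0.10 (adjusted p = 0.0186), and EXPA4 gave 0.44 ± 0.11 (adjusted p = 0.155) and 0.46 ± 0.12 (adjusted p = 0.0624). EXLA1, an expansin-like gene, had 9.3, 11.3 and 9.48 CPM in wounded isi1-2 and 7.47, 31.2 and 25.9 CPM in wounded WT. It gave -1.13 ± 0.67 (adjusted p = 0.606) with 12 libraries and -1.52 ± 0.30 (adjusted p = 0.0378) with 11, and it overlaps AT3G45980 on the other strand. ATCSLA15 and CSLA10, of the family of mannan synthases, gave 1.62 ± 0.53 and 1.29 ± 0.44 with 12 libraries (adjusted p = 0.336 for both) and 1.96 ± 0.37 and 1.60 ± 0.29 with 11 (adjusted p = 0.0378 and 0.0145).

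Among 44 tested family 1 glycosyltransferases, 5 were positive and none negative at an unadjusted p under 0.05 with 12 libraries, and 7 and none with 11, against 5% and 6.52% of all genes positive at that level. Their median was 0.03 with 12 libraries and 0.18 with 11. UGT71B1 was the called member in both, where 0.0321% and 1.29% of all genes were called. UGT72B1, which glucosylates phenolic compounds, gave 0.52 ± 0.13, UGT76E11 0.40 ± 0.11 and UGT84A3, of the group that esterifies hydroxycinnamates, 0.39 ± 0.18 with 12 libraries (adjusted p = 0.161, 0.198 and 0.469). AT1G54010, annotated as a lipase or acylhydrolase of the GDSL family, gave the largest positive interaction among the genes called with 11 libraries that averaged at least 1 on the log2 CPM scale. It had 60.4, 60.6 and 60.7 CPM in wounded isi1-2, 0.297, 0.239 and 0.247 CPM in unwounded isi1-2, 51, 24.8 and 22.7 CPM in wounded WT, and 0.855, 0.602 and 0.209 CPM in unwounded WT. Replicate 1 of wounded WT was nearer to wounded isi1-2 than replicates 2 and 3 were, and the interaction was 1.97 ± 1.03 (adjusted p = 0.55) with it and 2.45 ± 0.40 (adjusted p = 0.00426) without it.

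Among growth hormone genes, the sign of a group median could turn with the omitted library. The SAUR family of auxin-induced growth genes had 50 tested members, 20 positive and 30 negative with 12 libraries (median -0.08) but 34 positive and 16 negative with 11 (median 0.19). AT4G38860 had 9.18, 5.79 and 6.98 CPM in wounded isi1-2, 46.4, 44.3 and 46.9 CPM in unwounded isi1-2, 16.2, 3.72 and 4.05 CPM in wounded WT, and 41.5, 43.2 and 41.6 CPM in unwounded WT. Its interaction was -0.23 ± 0.66 (adjusted p = 0.947) with replicate 1 of wounded WT and 0.80 ± 0.18 (adjusted p = 0.0299) without it, so that the sign differed. AT4G34760 gave 0.30 ± 0.26 (adjusted p = 0.739) with 12 libraries and 0.66 ± 0.12 (adjusted p = 0.00818) with 11. AT4G38860 and AT4G34760 were the 2 calls among the 50 with 11 libraries, where 0.674% of all genes were called more positive. AT1G19840 gave 1.55 ± 0.42, AT4G38840 gave -0.44 ± 0.19 and AT3G60690 gave 0.39 ± 0.19 with 12 libraries (adjusted p = 0.18, 0.45 and 0.492).

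Brassinosteroid genes had 12 of 14 members positive in both fits, with medians of 0.09 and 0.08. BR6OX2, which makes brassinolide, had 12.4, 15.9 and 19 CPM in wounded isi1-2, 37, 37.7 and 34.3 CPM in unwounded isi1-2, 13.2, 7.26 and 6.92 CPM in wounded WT, and 28.4, 34 and 32.5 CPM in unwounded WT. It gave 0.60 ± 0.31 (adjusted p = 0.542) with 12 libraries and was called at 0.96 ± 0.18 (adjusted p = 0.0159) with 11. This was the 1 call among the 14, where 0.674% of all genes were called more positive. The signalling inhibitor BKI1 and the synthesis enzymes ROT3 and CPD gave 0.48 ± 0.19, 0.81 ± 0.40 and 0.24 ± 0.09 with 11 libraries (adjusted p = 0.288, 0.428 and 0.248). Of the 21 tested cytokinin genes, 2 were called more positive with 11 libraries, against 0.674% of all genes. CKX6, which degrades cytokinin, gave 0.72 ± 0.20 (adjusted p = 0.183) and 0.90 ± 0.18 (adjusted p = 0.0163), and the receptor AHK4 gave 0.40 ± 0.12 (adjusted p = 0.212) and 0.53 ± 0.09 (adjusted p = 0.00517). The receptor AHK2 gave -0.33 ± 0.09 and -0.36 ± 0.09 (adjusted p = 0.198 and 0.0741).

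Gibberellin genes had a median of 0.10 with 12 libraries and 0.12 with 11 and no call among 17 tested. GAI, a DELLA repressor of growth, gave 0.35 ± 0.10 and 0.40 ± 0.10 (adjusted p = 0.196 and 0.056). GA2OX8, a gibberellin-inactivating oxidase, had 1.04, 0.567 and 1.27 CPM in wounded isi1-2 and 0.263, 0.365 and 0.295 CPM in wounded WT, 0.0371, 0.102 and 0.123 CPM in unwounded isi1-2 and 0.204, 0.226 and 0.126 CPM in unwounded WT, where unwounded isi1-2 lay near the floor of 3 counts (adjusted p of the interaction = 0.199). GASA6 gave -0.89 ± 0.29 (adjusted p = 0.305). Ethylene genes had 16 of 18 members positive with 12 libraries and 15 with 11, with medians of 0.19 and 0.18, and 5 and 6 positive members and no negative member at an unadjusted p under 0.05, against 5% and 6.52% of all genes positive. The receptor ETR2 gave 1.25 ± 0.32 and 1.35 ± 0.34 (adjusted p = 0.161 and 0.0624). ACO4, which makes ethylene, and EBF1, which degrades the transcription factor EIN3, gave 0.34 ± 0.12 and 0.25 ± 0.09 with 12 libraries (adjusted p = 0.308 and 0.336). The ACC synthase ACS6 gave 0.55 ± 0.20 with 11 libraries (adjusted p = 0.236). The ACC synthase ACS5 had 0.83, 0.202 and 0.238 CPM in wounded isi1-2 and 0.113, 0 and 0.0368 CPM in wounded WT, at or near the floor of 3 counts (adjusted p = 0.19 with 11 libraries).

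Among 14 ERF factors the median was 0.22 with 12 libraries and 0.06 with 11. ERF4, a repressor, had 81.9, 86.5 and 81.4 CPM in wounded isi1-2, 11.3, 9.51 and 11.1 CPM in unwounded isi1-2, 54.1, 59.9 and 57.6 CPM in wounded WT, and 12.1, 9.06 and 11.8 CPM in unwounded WT. The wounded groups did not overlap, and the interaction was 0.59 ± 0.13 (adjusted p = 0.128) with 12 libraries and 0.56 ± 0.13 (adjusted p = 0.0464) with 11. ERF4 was the 1 call among the 14 with 11 libraries, where 0.674% of all genes were called more positive. RAP2.6L gave 2.34 ± 0.65 (adjusted p = 0.196) and ERF104 0.51 ± 0.41 (adjusted p = 0.717) with 12 libraries. RAP2.6L had 2, 8 and 5 counts in unwounded isi1-2 and 5, 9 and 3 in unwounded WT, in part near the floor of 3 counts. Of 58 NAC factors, LOV1 was called more negative with 11 libraries at -0.68 ± 0.12 (adjusted p = 0.00738), against -0.60 ± 0.13 (adjusted p = 0.1) with 12, and NAC083 more positive at 0.52 ± 0.09 (adjusted p = 0.00836), against 0.36 ± 0.13 (adjusted p = 0.364). These calls stand beside 0.62% of all genes called more negative and 0.674% more positive with 11 libraries. NAC032 gave 0.65 ± 0.25 and NAC041 gave 0.44 ± 0.20 with 12 libraries (adjusted p = 0.379 and 0.467).

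Chloroplast transcripts moved with replicate 1 of wounded WT. Plastid-encoded genes held 0.0427% to 0.056% of counts in wounded isi1-2, 0.0397% to 0.0428% in unwounded isi1-2, 0.0557%, 0.03% and 0.029% in replicates 1, 2 and 3 of wounded WT, and 0.0368% to 0.0427% in unwounded WT. Replicate 1 of wounded WT thus lay with the wounded isi1-2 libraries. The libraries were selected for poly-A RNA, which plastid transcripts mostly lack. With 12 libraries 55 of the 64 tested plastid-encoded genes were positive, with a median of 0.31. At an unadjusted p under 0.05, 4 were positive and none negative, against 5% and 5.49% of all genes. With 11 libraries 61 were positive, with a median of 0.68, and 28 were positive at that level, against 6.52% of all genes. Calls with 11 libraries numbered 4, all more positive, against 0.674% of all genes. Among the called genes, ATCG00330 gave 0.67 ± 0.68 with 12 libraries and 1.59 ± 0.35 with 11 (adjusted p = 0.792 and 0.0299), and the part of the plastid share of each library in this result was not tested.

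The lists of chlorophyll synthesis, starch breakdown, carbon starvation and plasma membrane aquaporins held no call by edgeR in either fit. DESeq2 with 12 libraries called GUN4 of the chlorophyll list (adjusted p = 0.0421), 1 of 150 genes it called. Chlorophyll synthesis had 4 of 14 members negative at an unadjusted p under 0.05 in each fit and none positive, against 5.49% and 5.85% of all genes negative at that level, with medians of -0.09 and -0.07. GUN4, an activator of magnesium chelatase, had 61.2, 47.1 and 43.5 CPM in wounded isi1-2, 203, 232 and 202 CPM in unwounded isi1-2, 95.7, 79 and 84.3 CPM in wounded WT, and 208, 252 and 245 CPM in unwounded WT, with an interaction of -0.62 ± 0.17 (adjusted p = 0.199). The protochlorophyllide reductase PORB gave -0.39 ± 0.11 and the chelatase subunit CHLI2 -0.28 ± 0.09 (adjusted p = 0.198 and 0.268). In starch breakdown, medians were -0.04 and -0.06 over 20 genes, with PHS2 at -0.36 ± 0.10, BAM8 at -0.35 ± 0.13 and PWD at -0.18 ± 0.07 with 12 libraries (adjusted p = 0.199, 0.362 and 0.407), and BAM3 at -0.38 ± 0.13 with 11 (adjusted p = 0.171). Carbon starvation genes had medians of 0.33 and 0.26 over 11 genes, with the trehalose-phosphate synthase homologue TPS8 at 0.33 ± 0.14, the asparagine synthetase ASN1 at 0.71 ± 0.31 and DIN9 at 0.66 ± 0.31 (adjusted p = 0.45, 0.467 and 0.474). The plasma membrane aquaporins PIP1B, PIP1;4 and PIP1C gave -0.28 ± 0.09, 0.30 ± 0.12 and -0.21 ± 0.09 with 12 libraries (adjusted p = 0.246, 0.396 and 0.437).

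The remaining genes named for their size among the 11-library calls had mixed annotation. AT5G54585 had 17.1, 14.1 and 10.4 CPM in wounded isi1-2, 17.6, 15.2 and 15.5 CPM in unwounded isi1-2, 11.5, 4.38 and 4.35 CPM in wounded WT, and 15.8, 14.6 and 16.8 CPM in unwounded WT, and gave 1.02 ± 0.47 (adjusted p = 0.492) and 1.65 ± 0.22 (adjusted p = 0.00123). The noncoding AT3G06355 and the WD40 repeat gene AT1G24530 gave 1.53 ± 0.33 and 1.50 ± 0.31 with 11 libraries (adjusted p = 0.026 and 0.0183). AT2G24600, an ankyrin repeat gene, had 31.1, 32.5 and 30 CPM in wounded isi1-2, 8.76, 6.2 and 7.11 CPM in unwounded isi1-2, 19.6, 88.5 and 72.6 CPM in wounded WT, and 6.88, 5.87 and 7.62 CPM in unwounded WT. With replicate 1 of wounded WT at 19.6 CPM, its interaction was -1.07 ± 0.70 (adjusted p = 0.655), and without it -1.48 ± 0.17 (adjusted p = 0.000439). On the negative side with 11 libraries, AT1G25400 gave -1.59 ± 0.35 (adjusted p = 0.0283), AT3G06520, an agenet domain gene, -1.34 ± 0.28 (adjusted p = 0.0183), AT4G13577 -1.26 ± 0.26 (adjusted p = 0.0183) and AT5G10695 -1.25 ± 0.26 (adjusted p = 0.0207).

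Of the 48 gene groups examined, 21 are given without values of single genes, and none of these 21 held a call by edgeR in either fit. Groups with examples above but without a call are not among them. At an unadjusted p under 0.05 the abscisic acid group had 5 positive members of 26 and none negative in each fit. Of all genes, 5% and 6.52% were positive at that level. The medians of the group were 0.20 and 0.16. The 21 groups include morning clock genes, jasmonate synthesis, light-harvesting proteins, nuclear photosystem subunits, glucosinolate synthesis, heat shock proteins, WRKY factors and the cell cycle. Over the 48 groups, the median was positive for 29 with 12 libraries and for 34 with 11, and it changed sign between the fits for 9.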

How the data were processed

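The authors deposited raw counts, that is, whole numbers of reads per gene, for each of the 12 libraries. Stranded poly-A libraries were read from 1 end, per the labels' protocols. cutadapt 1.8, STAR 2.5.3a, HTSeq 0.9.1 and the build TAIR10 are named per the submitters' processing notes. The use of strand in counting is not given in the sources used here. Rows that name no gene held 4.96% to 5.51% of each library and were left out.

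Of 34262 genes, 18698 passed edgeR's filterByExpr. The interaction was tested with edgeR 4.0.16 (R 4.3.3, TMM, robust quasi-likelihood test, 1 coefficient per group, Benjamini-Hochberg adjustment over all genes), with all 12 libraries and without replicate 1 of wounded WT. A call is an adjusted p under 0.05. Differences are log2 fold changes ± SE. The biological coefficient of variation was 8.85%. A floor of 3 counts was 0.0976 to 0.129 CPM and covers counting error only. The procedure was tested on simulated data. limma 3.58.1 (voom), DESeq2 1.42.0, other filters and scalings, a replicate block and the omission of each library were alternatives.

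Named genes were ISI1, every gene called with 12 libraries, the 8 largest interactions in each direction among genes called with 11 libraries whose mean log2 CPM was at least 1, and in each described group up to 3 members with the smallest p in each fit. Members and lists were chosen with earlier results of these data known; the CRK list, the choice of groups to describe and the kinase word followed from interaction values. Of the 119 named genes, 29 overlap a gene on the other strand. Replicate numbers are not said to pair the samples. Nothing in the labels says more of the replicates than that each pooled 2 plants.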

Additional observations from a re-analysis of the deposited data

Results flagged for a closer look

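The response to wounding differed between isi1-2 and WT by the interaction test for 6 named genes with all 12 libraries (edgeR quasi-likelihood test, adjusted p under 0.05). Their interactions on the log2 scale were EXPA10 (1.11), FKF1 (-0.76), APT2 (-0.86), AT2G31560 (0.89), UGT71B1 (0.96) and PRR5 (-0.80). A further 38 named genes differed with 11 libraries, without replicate 1 of wounded WT, and not with 12.

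On the positive side with 11 libraries these were AT1G54010 (2.45), ATCSLA15 (1.96), CDF1 (1.74), AT5G54585 (1.65), CSLA10 (1.60), ATCG00330 (1.59), AT3G06355 (1.53), AT1G24530 (1.50), IAR3 (0.61), JAZ3 (0.60), NINJA (0.38), AT4G34760 (0.66), AT4G38860 (0.80), BR6OX2 (0.96), CKX6 (0.90), AHK4 (0.53), ERF4 (0.56), NAC083 (0.52), TSA1 (0.63), C4H (0.54) and 4CL2 (0.95). On the negative side they were AT1G25400 (-1.59), EXLA1 (-1.52), AT2G24600 (-1.48), AT3G06520 (-1.34), CRK41 (-1.31), AT4G13577 (-1.26), AT5G10695 (-1.25), AT1G33770 (-1.24), TOC1 (-0.52), EXPA11 (-0.69), EXPA5 (-0.50), EDS1 (-0.66), LOV1 (-0.68), ACA8 (-0.49), CRK17 (-0.87), CRK10 (-1.12) and CRK19 (-0.41). Replicate 1 of wounded WT lay outside the range of replicates 2 and 3 for 225 of all 242 genes called with 11 libraries, against 14291 of 18698 genes tested. As the 242 were chosen by the fit without replicate 1, this count follows in part from that choice. The source of the deviation of replicate 1 was not tested.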

How the results depend on the processing

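The number of called genes depended on the processing. With 12 libraries, where 6 genes were called, 29 were called with no filter on low counts, 150 by DESeq2, 91 by limma voom with sample weights, 1 without robust estimation, 49 at an adjusted p under 0.1 and 1 when a 2-fold change was also asked. DESeq2 size factors and a CPM minimum each gave 5. Leaving out each library in turn gave 0 to 242 calls, with 0 in 6 of these fits, 12 without isi1-2 wounded replicate 3, 19 without isi1-2 wounded replicate 1 and 242 without WT wounded replicate 1. With 11 libraries, where 242 were called, 399 were called by DESeq2, 433 at an adjusted p under 0.1 and 53 at 2-fold, and leaving out a further library gave 79 to 314, with 142 without isi1-2 unwounded replicate 1, 86 without WT wounded replicate 2 and 79 without WT wounded replicate 3. A replicate block gave 75 calls with 12 libraries and 404 with 11. Whether libraries of the same number belong together is not given in the labels. Of 18 correlations between same-numbered libraries, 5 were over 0.1 (-0.03 to 0.185), and 8 of 12 libraries correlated best with their own number. Over the fits that left out 1 library, signs turned for AT4G38860 (-0.584 to 0.801, and 0.486 by voom), MYC4 (-0.059 to 0.399), CPD (-0.001 to 0.238) and GLR3.3 (-0.03 to 0.293). The negative values of MYC4 came without WT wounded replicate 2 and those of CPD and GLR3.3 without WT wounded replicate 3. The causes were not tested. Each of the 6 genes called with 12 libraries lost its call in 7 to 10 of the 12 fits that left out 1 library. These fits have fewer samples, and the part of this in the losses was not tested. Of the 242, 48 kept their call in all 11 such fits. With 3 pools of 2 plants in a group, small differences in low genes could not be resolved.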
